A study of Mus musculus with 6 samples.

Results

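Collagen VI is built by fibroblasts, and 1 of its genes, *Col6a1*, lends its promoter to the Cre transgene that deletes *Zeb1* in the mice studied here. The 4 genes *Col6a1*, *Col6a2*, *Col6a3* and *Col6a4* were taken by name from the 19069 genes listed on at least 1 plate, and all 4 were listed on every plate. Tumors of the colon, raised with AOM (azoxymethane, a carcinogen) and DSS (dextran sulfate sodium, which causes colitis), were taken from 6 mice, and single cells negative for EPCAM, CD45 and CD31 were sorted into 1 plate of 384 wells per mouse. FibCtrl mice (plates 1, 3 and 4) were Col6a1Cre transgene negative, and FibΔZeb1 mice (plates 2, 5 and 6) were Col6a1Cre transgene positive. Both genotypes carried floxed *Zeb1* alleles (*Zeb1* fl/fl) on a C57BL/6 background and were littermates of either sex matched for age, so that they differ by the transgene and by the deletion that it drives. The treatment field reads None in both groups, and the age itself was not given in the sources used here. The tables used here hold no row for the Cre transgene, so that endogenous *Col6a1* stands in for its activity, and a cell that expressed *Col6a1* earlier in its life cannot be recognised.

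Collagen VI forms beaded microfibrils around cells and next to basement membranes. The unit of assembly is a trimer of α1, α2 and α3 chains, encoded by *Col6a1*, *Col6a2* and *Col6a3*, and the α3 chain ends in the fragment known as endotrophin. Further chains, among them α4 from *Col6a4*, resemble α3 and can be assembled with α1 and α2 in its place. Cells bind the matrix through ANTXR1, ANTXR2, the proteoglycan CSPG4 (NG2) and integrins. In the gut, collagen VI is made by mesenchymal cells of the mucosa and the muscle layers, which is why Col6a1-Cre is used to reach intestinal fibroblasts.

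*Col6a1* (ENSMUSG00000001119, chr10:76708792-76726168) and *Col6a2* (ENSMUSG00000020241, chr10:76595762-76623630) lie on the minus strand of the same chromosome in GRCm38, separated by 85161 bases. *Col6a3* (ENSMUSG00000048126) is on chr1:90765923-90843971 and *Col6a4* (ENSMUSG00000032572) on chr9:105989454-106096783, both also on the minus strand. No exon of *Col6a1*, *Col6a2* or *Col6a3* overlaps another annotated gene. In *Col6a4*, 2 exons overlap the antisense gene *Gm47575* and 1 exon overlaps *Gm36993* on the plus strand, and its close relatives *Col6a5* and *Col6a6* are its neighbours, so that its counts are less certain than those of the other members. Because CEL-Seq2 counts each molecule once near its 3′ end, the length of a gene does not enter when the members are compared with each other.

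The promoters are shown because a *Col6a1* promoter region drives Cre and because *Col6a1* and *Col6a2* were found at nearly equal levels. Each run is the sequence on GRCm38.p6 from 250 bases before to 50 bases after a RefSeq start of the gene, on the strand of the gene. The runs lie at chr10:76725995-76726294, chr10:76623355-76623654, chr1:90843922-90844221 and chr9:106096642-106096941, in the order below. For *Col6a1*, *Col6a2* and *Col6a4* this RefSeq start lies inside the gene span given above, and only that of *Col6a3* is at the edge of its span. Capitals mark matches, on either strand, to the motifs searched, which were the E-box CAGGTG bound by ZEB1, the AP-1 site TGANTCA, the GC box GGGCGG and TATAAA.
Col6a1: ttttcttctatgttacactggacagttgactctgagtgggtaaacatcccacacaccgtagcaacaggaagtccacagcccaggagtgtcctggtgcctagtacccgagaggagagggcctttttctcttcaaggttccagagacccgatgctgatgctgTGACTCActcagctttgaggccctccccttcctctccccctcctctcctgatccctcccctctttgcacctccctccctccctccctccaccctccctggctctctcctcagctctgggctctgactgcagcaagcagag
Col6a2: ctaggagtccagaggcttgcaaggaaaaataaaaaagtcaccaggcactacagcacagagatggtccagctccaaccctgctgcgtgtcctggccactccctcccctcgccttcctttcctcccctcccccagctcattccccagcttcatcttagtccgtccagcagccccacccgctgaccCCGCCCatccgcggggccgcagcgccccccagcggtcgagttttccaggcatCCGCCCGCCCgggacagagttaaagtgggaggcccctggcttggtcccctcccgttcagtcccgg
Col6a3: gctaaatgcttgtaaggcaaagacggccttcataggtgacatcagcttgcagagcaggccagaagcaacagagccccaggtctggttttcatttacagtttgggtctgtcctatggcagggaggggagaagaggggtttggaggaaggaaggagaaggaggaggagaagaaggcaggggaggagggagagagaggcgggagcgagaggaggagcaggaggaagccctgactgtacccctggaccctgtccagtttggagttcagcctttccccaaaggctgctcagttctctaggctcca
Col6a4: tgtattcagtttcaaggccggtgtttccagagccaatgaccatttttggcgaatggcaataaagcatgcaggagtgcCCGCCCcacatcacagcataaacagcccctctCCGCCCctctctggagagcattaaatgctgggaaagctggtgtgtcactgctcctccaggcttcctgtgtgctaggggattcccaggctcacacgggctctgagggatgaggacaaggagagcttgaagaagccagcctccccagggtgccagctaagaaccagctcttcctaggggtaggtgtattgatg
The *Col6a1* window held 1 AP-1 match (TGACTCA), starting 90 bases before this RefSeq start and thus inside the gene span given above. Of all 32851 promoters, 7.81% held one. The *Col6a2* window held 3 GC boxes, the last 2 of which overlap, and the *Col6a4* window held 2, a motif present in 35.7% of all promoters. None of the 4 windows held CAGGTG (20.2% of all promoters) or TATAAA (13.6%), and the *Col6a3* window held none of the motifs. The GC content was 57.3%, 64.3%, 56.3% and 55.0%, in the order above, against a median of 52.7%. A second RefSeq start of *Col6a2*, at the edge of its gene span, is not shown. Its window, chr10:76623581-76623880, held 1 GC box and no other of the motifs.

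The plates held 1575726 to 3699058 gene transcripts, and 1233 of 2304 wells passed with 100 to 6000 genes and under 10% mitochondrial transcripts (109 to 298 per plate). All plates share the same 384 well barcodes by design. Wells were assigned to cell types by marker lists that contain no collagen VI gene: 528 were fibroblast wells, 65 mural wells, 75 epithelial wells and 432 neutrophil wells, while 123 stayed without a class. The label CAFs and the CD45-negative sort are at odds with the neutrophil wells, which made up most kept wells on plates 3 and 6, where only 15 and 13 fibroblast wells were left. No well was called endothelial. As a check of the genotype, *Zeb1* in fibroblast wells was at 110, 121 and 96.5 CPM (transcripts per 1000000 gene transcripts of the summed wells) on FibCtrl plates 1, 3 and 4 and at 59.6, 72.1 and 54.5 CPM on FibΔZeb1 plates 2, 5 and 6. The groups did not overlap. Where the counted tag lies relative to the floxed part of *Zeb1* was not given in the sources used here, so that the remaining *Zeb1* counts do not measure the share of deleted cells.

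Fibroblast wells held most of the collagen VI transcripts, and *Col6a1* was found in nearly all of them. Over the kept wells, fibroblast wells accounted for 82.8% of *Col6a1*, 79.3% of *Col6a2*, 62.8% of *Col6a3* and 81.2% of *Col6a4* transcripts. These percentages also depend on the number and depth of the wells, and 528 of 1233 kept wells were fibroblast wells. The share of all gene transcripts in fibroblast wells is not given here, so that these percentages alone show no enrichment. *Col6a1* was at 1940, 1753, 1602, 2141, 1573 and 2360 CPM on plates 1 to 6. *Col6a2* was close to it, at 1904, 1700, 1729, 2229, 1268 and 2272 CPM. Both genes were lowest on plate 5 and highest on plate 6, which are FibΔZeb1 plates, with the FibCtrl plates in between. *Col6a3*, which encodes the largest of the classical chains, was lower at 954, 816, 769, 836, 629 and 1462 CPM, with plate 6 the highest. *Col6a4* was the least abundant, at 64.7, 56.2, 97.8, 189, 21.0 and 114 CPM, lowest on plate 5 and highest on plate 4. On the CPM scale the order was therefore *Col6a1* and *Col6a2*, which did not differ beyond their spread (1895 ± 313 and 1850 ± 374, SD, n = 6), then *Col6a3* (911 ± 290) and *Col6a4* (90.4 ± 58.2).

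**Figure D1:**
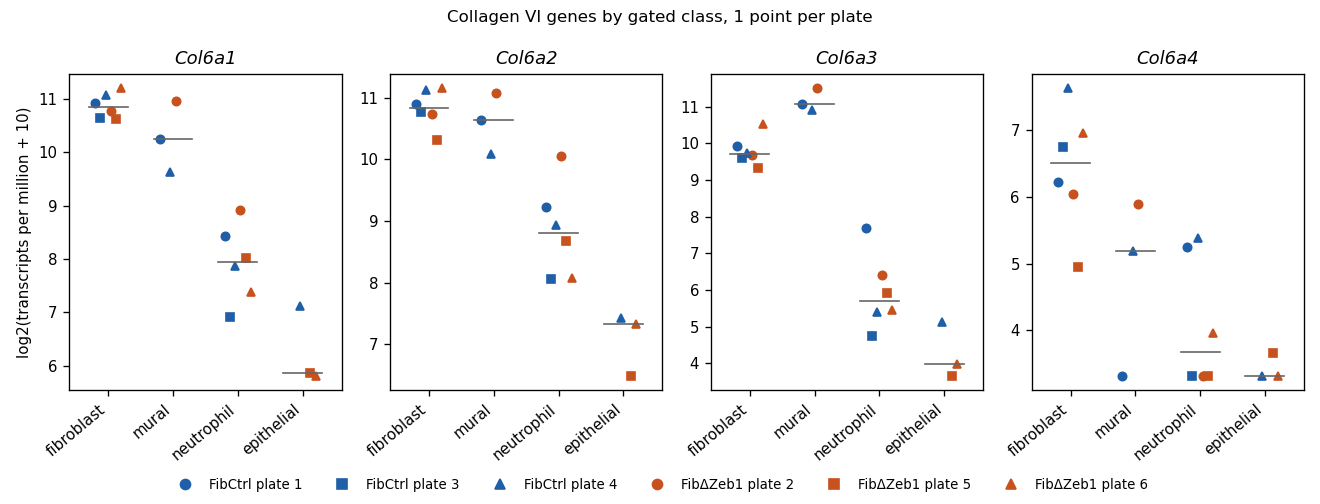
Levels of the 4 collagen VI genes, as log2(CPM + 10), in fibroblast, mural, neutrophil and epithelial wells (x axis). Each point is the sum of 1 plate with at least 5 wells of the class, colored by genotype, and the grey line is the median. Col6a1 and Col6a2 were lower in neutrophil and epithelial wells than in fibroblast wells, and Col6a3 was highest in the mural wells of the 3 plates shown.

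At least 1 *Col6a1* transcript was detected in 94.7% to 100% of fibroblast wells of a plate, *Col6a2* in 93.9% to 100%, *Col6a3* in 70.9% to 93.3% and *Col6a4* in 5.26% to 54.7%. Such shares depend on depth, and RNA free in the suspension can enter any well. Neutrophils, which do not make collagen, therefore serve as background. In neutrophil wells *Col6a1* was found in 15.5% to 62.5%, at a median of 1094 to 2624 barcodes per well against 7503 to 15704 in fibroblast wells. After thinning to 500 barcodes per well, the expected share of wells with *Col6a1* was 48.1% to 63.0% in fibroblast wells, 26.7% to 54.0% in mural wells, 5.80% to 21.6% in neutrophil wells and 2.54% to 7.87% in epithelial wells. Fibroblast wells were thus above the background on every plate. For *Col6a4* the thinned share was 0.806% to 9.15% in fibroblast wells and 0% to 1.71% in neutrophil wells, so that the ranges over plates overlapped at the low end. Its CPM in neutrophil wells was 27.9, 0, 0, 31.8, 0 and 5.63 on plates 1 to 6, each below the fibroblast wells of the same plate. Each of these values above 0 rests on 1 transcript.

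Against fibroblast wells of the same plates, neutrophil wells fell in all 3 members that could be tested. *Col6a1* was at 335, 475, 110, 223, 250 and 158 CPM in neutrophil wells of plates 1 to 6, below every fibroblast value. The fitted change was a log2 fold change of -2.67 (SE 0.32, edgeR quasi-likelihood adjusted p = 2.0e-11), which corresponds to 6.38-fold less. *Col6a2*, at 587, 1053, 257, 477, 399 and 259 CPM, also below every fibroblast value, fell by 1.70 on the log2 scale (SE 0.31, edgeR adjusted p = 1.6e-06), and *Col6a3*, at 16.7 to 196 CPM, fell by 3.77 (SE 0.39, edgeR adjusted p = 5.8e-14). These 3 calls stand against a background in which 74.8% of the 3411 genes tested were called, so that being called says little about the members, while the median over all genes was -0.42. *Col6a4*, with 3 transcripts in 432 neutrophil wells, did not pass the filter on low counts. *Zeb1* fell by 1.09 (SE 0.44, edgeR adjusted p = 0.021), a call that was lost without plate 3 (-0.83, adjusted p = 0.131) or plate 6 (-0.90, adjusted p = 0.0918). The summed fibroblast markers in neutrophil wells were 580 to 2497 CPM, against 19019 to 34763 CPM in fibroblast wells, and their part in the remaining collagen VI counts was not tested.

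The ratio between the chains was not the same in all classes. Of the transcripts of *Col6a1*, *Col6a2* and *Col6a3* together, *Col6a2* made up 39.7% ± 2.51 in fibroblast wells (SD, n = 6 plates) but 60.8% ± 5.91 in neutrophil wells (n = 6) and 62.3% ± 11.5 in epithelial wells (n = 3). Neither range (52.5% to 67.0% and 51.3% to 74.3%) overlapped that of fibroblast wells (36.5% to 42.8%). Some of these shares rest on few transcripts: neutrophil wells of plates 1 and 4 held 12 and 7 of *Col6a1* and 21 and 15 of *Col6a2*. Epithelial wells could be summed on plates 4, 5 and 6, with *Col6a1* at 129, 48.0 and 46.3 CPM, *Col6a2* at 162, 80.0 and 151 CPM and *Col6a3* at 24.9, 2.67 and 5.79 CPM. *Zeb1* was at 4.16 CPM, from 1 transcript, in epithelial wells of plate 4 and at 0 on the other 2.

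In mural wells, which stand for the pericytes and smooth muscle cells of vessels, *Col6a3* was higher than in fibroblast wells on 4 of 6 plates. It was at 2126, 2897 and 1912 CPM in mural wells of plates 1, 2 and 4, the plates with at least 5 such wells, against 954, 816 and 836 CPM in fibroblast wells of the same plates. These 3 mural values lay above all 6 fibroblast values. On the plates with 3 or 4 mural wells, *Col6a3* was at 1548 CPM on plate 3, above the 769 CPM of fibroblast wells, but at 370 and 665 CPM on plates 5 and 6, below 629 and 1462 CPM. On plates 1, 2 and 4 the log2 fold change was 1.28 (SE 0.27, edgeR adjusted p = 0.00138) or 2.43-fold, in a comparison in which 16.8% of the 7544 genes tested were called. Plate 2, which held 35 mural wells against 9 and 11 on plates 1 and 4, carried this call: without that plate the log2 fold change was 1.002 (adjusted p = 0.144). The call was also lost with all 6 plates, an alternative chosen after seeing the data (0.55, SE 0.35, adjusted p = 0.302). *Col6a1*, in contrast, was at 1211, 1999 and 782 CPM in mural wells, with a log2 fold change of -0.75 that did not pass (SE 0.30, adjusted p = 0.111, 95% interval -1.38 to -0.12). *Col6a2* was at 1590, 2144 and 1075 CPM (log2 fold change -0.44, SE 0.29, adjusted p = 0.399, 95% interval -1.04 to 0.16). *Col6a4* was at 0, 49.6 and 26.6 CPM (-1.31, SE 0.45, adjusted p = 0.0529). With only genes named mt- in the mitochondrial filter, which keeps other wells, all 3 of these passed, at -1.11, -0.73 and -1.96, and with all 6 plates *Col6a1* (-1.01, adjusted p = 0.0323) and *Col6a4* (-1.53, adjusted p = 0.0094) passed.

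On plates 1, 2 and 4 the transcripts of the trimer were in another proportion in mural than in fibroblast wells. *Col6a3* accounted for 45.0% ± 5.05 of the 3 chains in mural wells (n = 3) and for 19.3% ± 2.63 in fibroblast wells (n = 6), while *Col6a1* accounted for 24.6% ± 3.83 and 41.0% ± 2.37. Neither share of these 3 plates overlapped that of fibroblast wells. On plates 3, 5 and 6, with 242, 21 and 116 transcripts of the chains, *Col6a3* made up 23.3%, 19.0% and 37.9% in mural wells, of which the first 2 lie within the fibroblast range of 16.1% to 24.0%. On plates 1, 2 and 4 *Col6a1* was detected in 81.8% to 97.1% of mural wells, and 27.3% to 42.9% of these wells held *Zeb1*, at 64.9, 45.6 and 35.5 CPM on plates 1, 2 and 4. The driver gene was thus detected in most mural wells, above its level in neutrophil wells of the same plates, next to a *Zeb1* level below that of fibroblast wells on each of the 3 plates (log2 fold change -0.83, SE 0.35, edgeR adjusted p = 0.122, passed at 0.0448 with the mt- filter and at 0.0484 with all 6 plates). Fibroblast markers summed to 9935, 8779 and 3757 CPM in mural wells, and the part of such transcripts in the collagen VI counts was not tested. A comparison of genotypes in mural wells could not be made, because only 1 FibΔZeb1 plate held 5 of them.

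**Figure D2:**
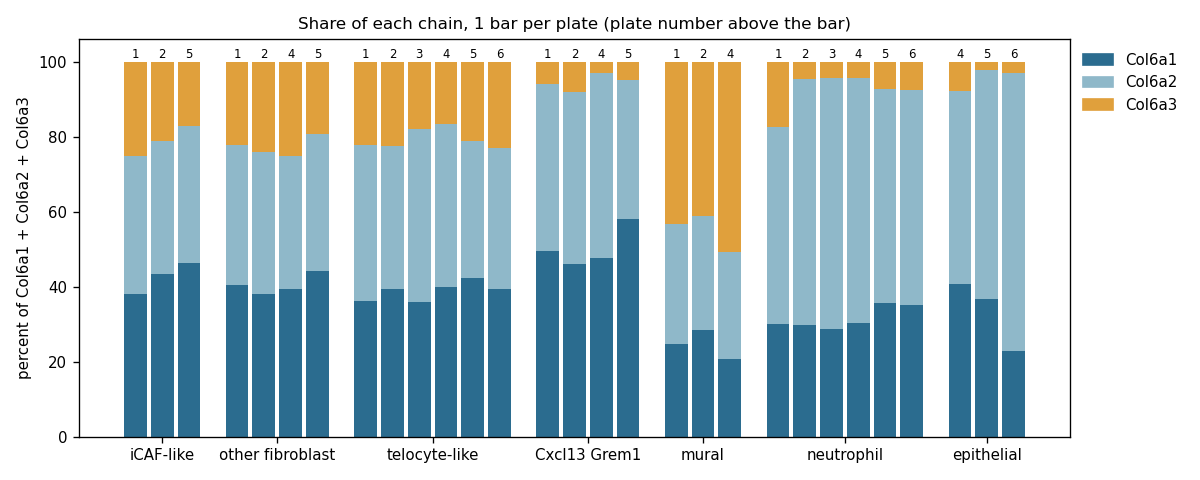
Percent of the summed Col6a1, Col6a2 and Col6a3 transcripts that belongs to each chain (y axis), with 1 bar per plate and the bars grouped by cell class or fibroblast subtype (x axis, plate number above each bar). Col6a3 made up 41.2% to 50.7% in mural wells of plates 1, 2 and 4 and 2.93% to 8.17% in Cxcl13 Grem1 wells.

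Fibroblast wells were divided further by marker lists into 132 iCAF-like wells (*Pi16*, *Ptx3*, *Sfrp4*, *Gdf10*, *Penk*, *Cd34*), 112 telocyte-like wells (*Wnt5a*, *Bmp7*, *Nrg1*, *Bmp3*, *Bmp5*, *F3*) and 128 wells with *Cxcl13*, *Grem1*, *Edil3*, *Hapln1*, *Sfrp2* or *Tnfsf13b*, called *Cxcl13* *Grem1* wells. The other 156 wells met no list or had no lead of 1 marker between lists. iCAF stands for inflammatory cancer-associated fibroblasts, and telocytes are the subepithelial cells that signal to the epithelium. The lists share no gene with the collagen VI family.

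*Col6a1* was detected in all 112 telocyte-like wells, all 132 iCAF-like wells and 127 of 128 *Cxcl13* *Grem1* wells. It was at 2137, 2145, 1598, 2520, 1862 and 3176 CPM in telocyte-like wells of plates 1 to 6. In iCAF-like wells of plates 1, 2 and 5 it was at 2077, 1461 and 1683 CPM. In *Cxcl13* *Grem1* wells it was at 1542, 1453, 2532 and 875 CPM on plates 1, 2, 4 and 5. The ranges overlapped, and none of the 3 comparisons passed: telocyte-like against iCAF-like 0.10 (95% interval -0.34 to 0.53, edgeR adjusted p = 0.827), *Cxcl13* *Grem1* against iCAF-like -0.57 (-1.05 to -0.10, adjusted p = 0.172) and *Cxcl13* *Grem1* against telocyte-like -0.49 (-0.92 to -0.065, adjusted p = 0.178). The share of genes called in them was 16.8% of 6199, 6.44% of 7204 and 8.8% of 5875. Without plate 2, the difference of *Cxcl13* *Grem1* from iCAF-like wells passed for *Col6a1* (-0.85, adjusted p = 0.00976) and *Col6a2* (-1.03, adjusted p = 0.00111). With all plates *Col6a2* differed by 0.30 (adjusted p = 0.405), -0.59 (adjusted p = 0.259) and -0.66 (adjusted p = 0.0806) in the same order.

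*Col6a3* fell in *Cxcl13* *Grem1* wells against both other subtypes. It was at 182, 258, 156 and 74.4 CPM on plates 1, 2, 4 and 5, whereas iCAF-like wells held 1382, 711 and 621 CPM on plates 1, 2 and 5 and telocyte-like wells 1317, 1228, 797, 1053, 931 and 1850 CPM on plates 1 to 6. The highest *Cxcl13* *Grem1* value was well below the lowest of the others. The log2 fold change was -2.45 against iCAF-like wells (SE 0.31, edgeR adjusted p = 1.0e-04), or 5.48-fold less, and -2.70 against telocyte-like wells (SE 0.23, edgeR adjusted p = 1.3e-06), or 6.48-fold less. *Col6a3* thus contributed 5.47% ± 2.17 of the 3 chains in these wells (n = 4), against 21.1% ± 4.07 in iCAF-like (n = 3) and 20.6% ± 2.65 in telocyte-like wells (n = 6). *Cxcl13* *Grem1* wells held 22.3% of the *Col6a1* transcripts of all fibroblast wells but 6.85% of the *Col6a3* transcripts. The median depth per plate was 10073 to 14744 barcodes in *Cxcl13* *Grem1* wells and 8697 to 15998 in iCAF-like wells. Telocyte-like and iCAF-like wells did not differ in *Col6a3* by a passing test (0.27, 95% interval -0.22 to 0.77, edgeR adjusted p = 0.51).

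**Figure D3:**
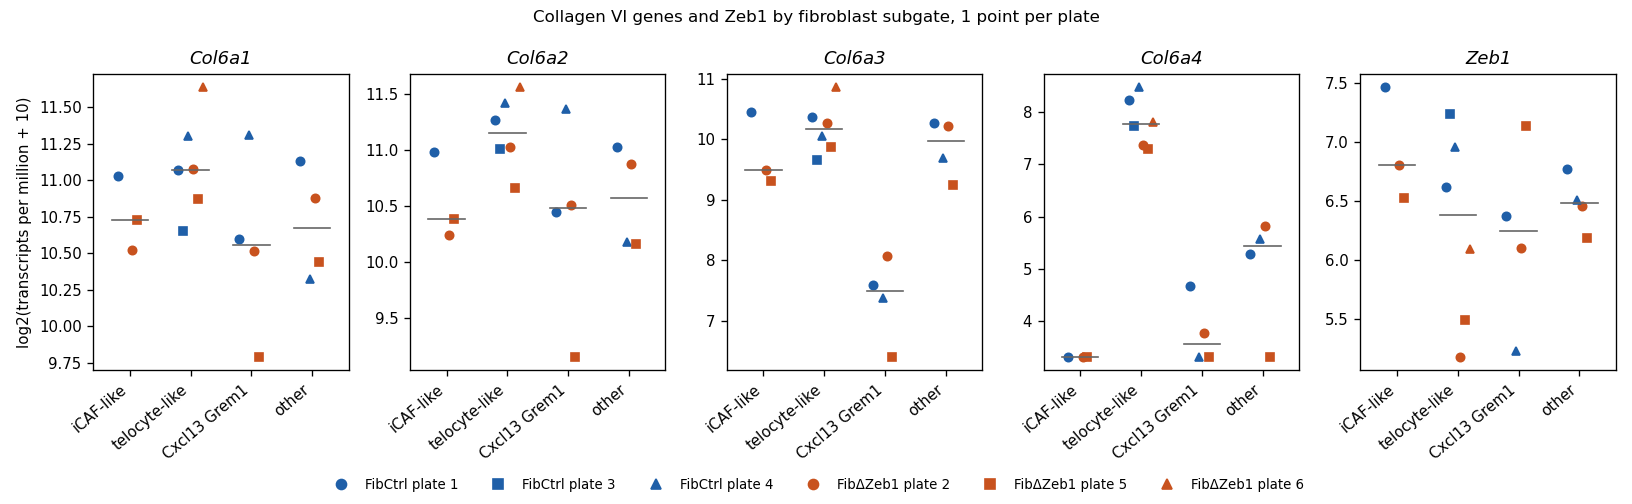
Levels of the collagen VI genes and Zeb1, as log2(CPM + 10), in the fibroblast subtypes (x axis). Each point is the sum of 1 plate with at least 5 wells of the subtype, colored by genotype, and the grey line is the median. Col6a3 was lowest in Cxcl13 Grem1 wells and Col6a4 highest in telocyte-like wells, while Col6a1 overlapped between the subtypes.

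Among fibroblast wells, *Col6a4* was nearly limited to telocyte-like wells, which held 87.2% of its transcripts there. Of its transcripts in all kept wells, 12.9% lay in wells without a class and 5.28% in mural wells. In telocyte-like wells *Col6a4* was at 289, 154, 202, 345, 147 and 213 CPM on plates 1 to 6 and was detected in 55.3% to 86.2% of wells. No *Col6a4* transcript was found in 122 iCAF-like wells of plates 1, 2 and 5, which allows a share of up to 2.46% of wells, whereas 46 of 71 telocyte-like wells of the same plates held it. With a floor of 3 counts over all iCAF-like wells of these plates, telocyte-like wells were at least 98.4-fold higher (239 counts against 0, edgeR adjusted p = 7.3e-07). *Col6a4* passed the filter on low counts only through the telocyte-like sums, so that this p adds no support beyond the counts. Against telocyte-like wells, *Cxcl13* *Grem1* wells fell by 4.74 on the log2 scale (SE 0.35, edgeR adjusted p = 4.1e-07), at 15.7, 3.73, 0 and 0 CPM on plates 1, 2, 4 and 5. Here too the filter was passed through the telocyte-like sums. The remaining *Col6a4* transcripts of fibroblast wells lay in wells without a subtype, at 0 to 46.7 CPM, and 1 transcript was found in an iCAF-like well of plate 6. Telocyte-like wells made up 13.1%, 24.1%, 40%, 54.7%, 8.77% and 46.2% of the fibroblast wells of plates 1 to 6, and *Col6a4* in all fibroblast wells was lowest on plate 5 and highest on plate 4, as this share was.

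*Zeb1* was lower in telocyte-like than in iCAF-like wells. On plates 1, 2 and 5 *Zeb1* was at 166, 102 and 82.2 CPM in iCAF-like wells and at 88.0, 26.2 and 34.9 CPM in telocyte-like wells, a log2 fold change of -1.47 (SE 0.29, edgeR adjusted p = 0.00200), while *Col6a1* passed no test between them. Without the plate in the model this call was lost (-1.40, adjusted p = 0.0582). Of these plates, 2 were from FibΔZeb1 mice, and plate 1 from a FibCtrl mouse showed the same direction.

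Within fibroblast wells, no collagen VI gene passed a test between the genotypes. *Col6a1* averaged 1894 ± 273 CPM in FibCtrl and 1895 ± 412 CPM in FibΔZeb1 mice (SD, n = 3 each, exact two-sided permutation p = 1), with a log2 fold change of 0.03 and a 95% interval of -0.46 to 0.53 (edgeR adjusted p = 1). *Col6a2* averaged 1954 ± 253 and 1746 ± 504 CPM (exact permutation p = 0.6), and *Col6a3* averaged 853 ± 93.4 and 969 ± 437 CPM (exact permutation p = 0.9). With 3 mice against 3, the smallest p that this test can give is 0.10. The log2 fold changes of these 2 genes were -0.13 (95% interval -0.66 to 0.40) and 0.19 (-0.48 to 0.87), so that changes within these bounds could not be told from none. *Col6a4* averaged 117 ± 64.2 and 63.7 ± 46.9 CPM (exact permutation p = 0.4), with a log2 fold change of -1.04 (SE 0.54, edgeR p = 0.0886, adjusted p = 1), and its values overlapped between the groups.

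No gene was called between the genotypes by edgeR among 8482 tested (0%), while 128 had an unadjusted p under 0.05 and DESeq2 called 5. The sign of the *Col6a1* and *Col6a3* differences rested on the 2 plates with few fibroblast wells: without plates 3 and 6 together they were -0.23 and -0.26. Plate 6 alone came from a separate sequencing run, and without it they were -0.13 and -0.19. In telocyte-like wells, where the genotypes can be compared within 1 subtype, *Col6a4* averaged 278 ± 72.1 CPM in FibCtrl and 171 ± 36.4 CPM in FibΔZeb1 mice (n = 3 each, exact permutation p = 0.2, overlapping), and *Col6a1* averaged 2085 ± 463 and 2394 ± 692 CPM (exact permutation p = 0.6). None of the shares of the 3 chains passed a test, with *Col6a1* at 40.2% ± 1.049 and 41.7% ± 3.35 (exact permutation p = 0.7), *Col6a2* at 41.6% ± 1.65 and 37.9% ± 1.71 (p = 0.2) and *Col6a3* at 18.2% ± 1.96 and 20.4% ± 3.14 (p = 0.5).

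**Figure D4:**
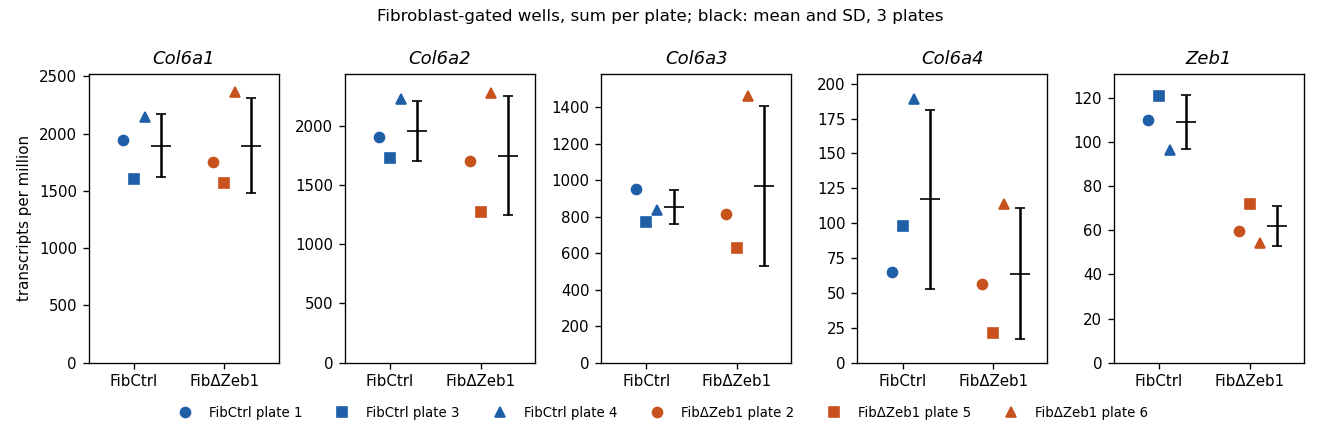
CPM (y axis, from 0) of the collagen VI genes and Zeb1 in the summed fibroblast wells of each plate by genotype (x axis), with the mean and SD of 3 plates in black. The collagen VI genes overlapped between FibCtrl and FibΔZeb1, and the 3 FibΔZeb1 values of Zeb1, 54.5 to 72.1, lay below the FibCtrl values, 96.5 to 121.

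*Zeb1* transcripts remained in fibroblast wells of all 3 FibΔZeb1 mice, at a lower level than in every FibCtrl mouse. *Zeb1* averaged 109 ± 12.3 CPM in FibCtrl and 62.0 ± 9.07 CPM in FibΔZeb1 fibroblast wells (exact permutation p = 0.1, the smallest possible), with a log2 fold change of -0.73 (SE 0.23, edgeR p = 0.0111, adjusted p = 1) or 1.66-fold less. It was detected in 56.0%, 53.3% and 54.7% of FibCtrl and in 45.6%, 35.1% and 38.5% of FibΔZeb1 fibroblast wells, and in 2.94% to 6.25% of neutrophil wells at lower depth. After thinning to 500 barcodes the shares were 5.50% ± 0.479 and 2.67% ± 0.906 (exact permutation p = 0.1). Over the 10 comparisons of CPM and thinned share of the 4 members and *Zeb1*, the adjusted p of *Zeb1* was 0.5 for both measures.

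*Zeb1* did not overlap between the genotypes in telocyte-like wells. It did in *Cxcl13* *Grem1* wells, where plates 4 and 5 held only 3 and 7 *Zeb1* transcripts. *Col6a1* was expressed in both subtypes. In telocyte-like wells *Zeb1* was at 88.0, 141 and 114 CPM on FibCtrl plates 1, 3 and 4 and at 26.2, 34.9 and 58.1 CPM on FibΔZeb1 plates 2, 5 and 6 (114 ± 26.5 against 39.8 ± 16.5, exact permutation p = 0.1), without overlap. In *Cxcl13* *Grem1* wells it was at 72.9 CPM on FibCtrl plate 1 and 58.5 CPM on FibΔZeb1 plate 2, from 51 and 47 *Zeb1* transcripts. On FibCtrl plate 4 and FibΔZeb1 plate 5 it was at 27.6 and 130 CPM, from 3 transcripts in 8 wells and 7 in 5 wells. The means were 50.2 ± 32.0 in FibCtrl and 94.3 ± 50.7 in FibΔZeb1 mice (n = 2 each, exact permutation p = 0.667). Their order rests on plates 4 and 5, and plates 1 and 2 had the opposite order. The interaction of subtype and genotype for *Zeb1* was 2.07 on the log2 scale (SE 0.68), with an edgeR adjusted p of 1, and this test and the comparisons of genotypes within subtypes were chosen after seeing the data. For *Col6a1* the same interaction was -0.62 (SE 0.38, adjusted p = 1). In iCAF-like wells FibCtrl plate 1 held 166 CPM of *Zeb1* and FibΔZeb1 plates 2 and 5 held 102 and 82.2 CPM, with 1 FibCtrl plate too few for a test.

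Fibroblast wells with more *Col6a1* held more *Zeb1* on some plates and less on others. The wells of each plate with at least 500 barcodes were split at the plate's median *Col6a1* level, and *Zeb1* was compared between the wells above and below it. In FibCtrl mice the log2 ratio of *Zeb1* in the wells with higher to those with lower *Col6a1* was 0.62, -0.60 and 0.52 on plates 1, 3 and 4. In FibΔZeb1 mice it was -0.65, -0.28 and 1.90 on plates 2, 5 and 6, where plate 6 rests on 9 against 2 *Zeb1* transcripts and plate 3 on 11 against 15. Each genotype showed both signs, and the means differed by less than their spread (0.18 ± 0.68 against 0.32 ± 1.38, exact permutation p = 0.9). The difference between the genotypes, 0.14, turned to -0.65 without plate 6 and to -0.25 without plate 3. In addition, 12 fibroblast wells of this depth held no *Col6a1* transcript, and no *Zeb1* transcript was found in them, at a median depth per plate of 1922 to 7201 barcodes.

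**Figure D5:**
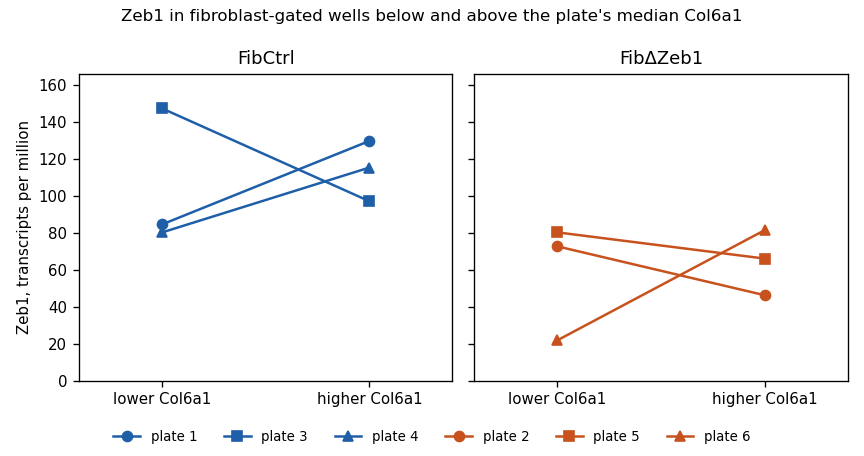
Zeb1 CPM (y axis, from 0) in fibroblast wells below and above the plate's median Col6a1 level (x axis), with 1 line per plate, FibCtrl on the left and FibΔZeb1 on the right. Lines of both directions are present in both genotypes.

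From well to well, *Col6a1* and *Col6a2* varied together more closely than either did with *Col6a3* on the 4 plates with enough wells. On the 4 plates with at least 50 fibroblast wells of 500 or more barcodes, Pearson's r of log2(CPM + 100) was 0.57 to 0.75 for *Col6a1* and *Col6a2*, 0.25 to 0.43 for *Col6a1* and *Col6a3*, and 0.30 to 0.48 for *Col6a2* and *Col6a3*. Spearman's rho was 0.54 to 0.77, 0.19 to 0.45 and 0.30 to 0.50. For comparison, r was 0.54 to 0.70 for *Col6a1* and the collagen I gene *Col1a2*, and 0.10 to 0.34 for *Col6a1* and *Col6a4*. On the plates left out, r of *Col6a1* with *Col6a2* and with *Col6a3* was 0.66 and 0.037 on plate 3 (15 wells) but 0.25 and 0.40 on plate 6 (13 wells). *Col6a3* had fewer counts than *Col6a1* or *Col6a2*, and the part of this in its lower r was not tested. All wells of a plate share a library and these correlations include differences in depth and subtype, so that they are given as a description.

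Across the 18 sums of a cell class on a plate, the gene most like *Col6a1* was *Col5a1*, which encodes a chain of collagen V. Of 6961 genes, the 10 with the highest Pearson's r in log2 CPM were *Col5a1* (0.984), *Col1a2* (0.980), *Col6a2* (0.979), *Col3a1* (0.978), *Col1a1* (0.973), *Bgn* (0.967), *Col5a2* (0.964), *Sod3* (0.954), *Postn* (0.951) and *Fndc3b* (0.9495). *Col5a1*, *Col5a2*, *Col1a1*, *Col1a2* and *Col3a1* encode chains of fibrillar collagens, *Bgn* the proteoglycan biglycan, *Postn* the matrix protein periostin and *Sod3* an extracellular superoxide dismutase. *Col1a1* is also a fibroblast marker of the gate. *Col6a3* ranked 11 (0.948), *Zeb1* 67 (0.884) and *Col6a4* 331 (0.745). The sums share plates and differ by class, so that r is given as a description.

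Of the genes whose promoters are used to drive Cre in fibroblasts, *Col1a2* and *Pdgfra* were set beside *Col6a1*. *Col1a2* was at 8956 to 10820 CPM in fibroblast wells, 2649 to 5733 CPM in mural wells and 321 to 1388 CPM in neutrophil wells. *Pdgfra*, which encodes a platelet-derived growth factor receptor and belongs to the fibroblast gate, was at 597 to 1213, 0 to 51.9 and 16.7 to 140 CPM in the same classes. *Col6a1* was at 1573 to 2360, 782 to 1999 and 110 to 475 CPM. Of the mural values of *Col6a1*, that of plate 2 lay within the fibroblast range and those of plates 1 and 4 below it. All mural values of *Col1a2* and *Pdgfra* lay below, which for *Pdgfra* is fixed in part by the gate.

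The receptors, processing enzymes and matrix partners of collagen VI were followed as a list of 30 genes, the gate markers *Cspg4* and *Dcn* not counted. Between the genotypes, none of the 26 tested members was called. In mural against fibroblast wells 2 of 26 tested rose and 8 fell, where 16.8% of all genes were called, with a median log2 fold change of -0.41 against -0.04 over all genes. The 2 that rose were integrin subunits, *Itga10* (45 counts in mural wells against 7 in fibroblast wells, 47.6-fold per transcript, 95% counting interval 21.3 to 125, and 26.7-fold without plate 1 and 78.8-fold without plate 4) and *Itga1* (2.602, SE 0.31). Among those that fell were the lysyl hydroxylase *Plod2* (-2.76, SE 0.38), the matrilin *Matn2* (-2.55, SE 0.41) and both anthrax toxin receptors, *Antxr1* (-1.03, SE 0.28) and *Antxr2* (-1.63, SE 0.36). *Col6a5*, which encodes the α5 chain, had no count in mural wells and was at least 7.07-fold lower there than in fibroblast wells, with a floor of 3 counts over the mural wells of 3 plates. Placing it at this bound left the median at -0.41. Among the receptors, those that rose and those that fell were thus of different families.

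In neutrophil against fibroblast wells 18 of 20 tested list members fell and 1 rose, with a median of -2.96 against -0.42 over all genes, of which 74.8% were called and 1474 of 3411 fell. *Hspg2*, which encodes perlecan (-5.01, SE 0.59), *Matn2* (-4.59, SE 0.49) and *Serpinh1*, the collagen chaperone HSP47 (-4.46, SE 0.39), fell most, and *Antxr2* rose (1.21, SE 0.31). In telocyte-like against iCAF-like wells 3 of 24 rose and 4 fell (median 0.08 against 0.03), where 16.8% of all genes were called. Fibronectin (*Fn1*, 1.26, SE 0.19) and the integrin β1 subunit (*Itgb1*, 0.89, SE 0.22) rose, and *Col6a5* did so with 50 counts against 1 (61.7-fold, 95% counting interval 10.6 to 2485). The prolyl hydroxylase subunit *P4ha3* (-2.27, SE 0.49), *Matn2* (-1.92, SE 0.25), *Plod2* (-0.99, SE 0.28) and fibrillin-1 (*Fbn1*, -0.92, SE 0.25) fell. *Col6a5* was at 27.9 to 90.7 CPM in telocyte-like wells of the 6 plates, and at 0 to 3.51 CPM in iCAF-like wells, a contrast it shared with *Col6a4*.

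In *Cxcl13* *Grem1* wells the calls in the list were near the share over all genes, which was 6.44% against iCAF-like and 8.8% against telocyte-like wells. Against iCAF-like wells 2 of 24 tested members fell, *Vwa1* (-3.11, SE 0.60), whose product is a pericellular partner of collagen VI, and *Plod2* (-1.11, SE 0.24), and none rose (median -0.20 against 0.01). Against telocyte-like wells *P4ha3* (1.97, SE 0.44) and *Matn2* (1.86, SE 0.27) rose and none of the 24 fell (median -0.16 against -0.04). All changes in these counts passed an edgeR adjusted p of 0.05.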

How the data were processed

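SORT-seq plates of 6 mice were analysed, with 1 plate per mouse as the replicate, so that mouse and plate cannot be told apart. The p-values between genotypes measure the spread between these plates. Those between classes or subtypes, with plate as a block, measure the spread of the difference within plates. In both, edgeR also draws on the spread of all genes tested. Per the labels and the study's methods, the authors aligned reads with BWA to GRCm38 transcripts and counted molecular barcodes with the sequencing provider's script, and the submitters' processing notes also list Cell Ranger 2.1.1. The deposited barcode tables hold whole counts. The deposited transcript tables, used here, hold estimated counts corrected by the authors for molecules that share a barcode. Neither is normalized. Spike-in RNA (7.85% to 18.6% of transcripts) was left out.

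Wells needed 100 to 6000 genes and under 10% transcripts of mitochondrial genes. A class needed 3 of 8 markers and a lead of 2 over every other class. A fibroblast subtype needed 3 of 6 markers and a lead of 1 over the other subtypes. A total of 341 kept wells met 2 or more class lists, and no doublet caller was run. Estimated counts were summed over the wells of a class and plate (at least 5 wells), rounded and fitted in edgeR 4.0.16 by its quasi-likelihood method after filterByExpr and TMM scaling, with plate as a block between classes and Benjamini-Hochberg adjusted p under 0.05 as a call, with DESeq2 1.42.0 as an alternative. Single values were set against each other with two-sided exact permutation. Intervals of fold changes from edgeR include the same spread as their p-values, while counting intervals, shares of 0 and floors of 3 counts cover counting error only. Fits were also run on simulated counts with the same spread for all genes, no plate effect and changes only in genes of higher counts. Such counts do not measure the error of the fits for genes of low counts or with plate effects. The members, marker lists, the pathway list and the rule for named genes (all members and *Zeb1*, up to 5 called pathway genes per comparison, 10 genes most like *Col6a1*, and the driver genes *Col1a2* and *Pdgfra*) were chosen with earlier results of these data known. Beyond this rule, *Antxr1* and *Antxr2* in mural wells, *Antxr2* in neutrophil wells and *Itgb1* and *Fbn1* in telocyte-like wells were named after their values were seen. Positions are from the GENCODE annotation and promoters from RefSeq.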

Additional observations from a re-analysis of the deposited data

Results flagged for a closer look

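Among the 3 plates with at least 5 mural wells, the level of the driver gene in mural relative to fibroblast wells pointed one way in FibCtrl mice and the other way in the FibΔZeb1 mouse. The log2 ratio of CPM was -0.68 on FibCtrl plate 1 and -1.45 on FibCtrl plate 4 but 0.19 on FibΔZeb1 plate 2 for *Col6a1*, and -0.26, -1.05 and 0.33 for *Col6a2* on the same plates. With 1 FibΔZeb1 plate, the interaction of class and genotype, added after seeing the data, was 1.30 for *Col6a1* (SE 0.70) and 1.04 for *Col6a2* (SE 0.70), each with an edgeR adjusted p of 1. The plates with 3 or 4 mural wells went against this split: *Col6a1* was at 2023 CPM in mural wells of FibCtrl plate 3 (1602 CPM in fibroblast wells) and at 739 and 347 CPM on FibΔZeb1 plates 5 and 6 (1573 and 2360 CPM), and *Col6a2* was at 3086, 831 and 741 CPM (1729, 1268 and 2272 CPM). With all 6 plates the interaction was -0.74 for *Col6a1* (SE 0.67) and -0.62 for *Col6a2* (SE 0.61), with adjusted p of 1. That for *Col6a4* on plates 1, 2 and 4 was 2.98 (SE 0.99, adjusted p = 1).

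Among fibroblast subtypes, the log2 ratio of *Col6a3* in telocyte-like to iCAF-like wells was -0.069 on FibCtrl plate 1 and 0.79 and 0.58 on FibΔZeb1 plates 2 and 5 (interaction 0.85, SE 0.53, edgeR adjusted p = 1). That of *Zeb1* in *Cxcl13* *Grem1* to telocyte-like wells was -0.27 and -2.05 on FibCtrl plates 1 and 4 and 1.16 and 1.90 on FibΔZeb1 plates 2 and 5, where the interaction also had an adjusted p of 1. The *Cxcl13* *Grem1* wells of plates 4 and 5 held only 3 and 7 *Zeb1* transcripts.

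Wells left out of all comparisons held the members too. In the 82 wells with under 100 genes, which held 8615 transcripts in all, *Col6a1* was found in 14 wells and summed to 2206 CPM, and *Col6a2* was found in 14 wells and summed to 1857 CPM. In 282 wells that met the fibroblast gate but had 10% or more mitochondrial transcripts, *Col6a1* was at 1745, *Col6a2* at 1888, *Col6a3* at 567, *Col6a4* at 102 and *Zeb1* at 73.7 CPM.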

How the results depend on the processing

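Of 522 recomputed values, 473 kept their direction and side of the threshold, or moved by less than the spread or 1.5 times for counts. Where a sign or call changed, the cause was not tested except where named. For the genotype, DESeq2 called 5 genes in place of 0. The *Col6a1* difference reversed to -0.022 with only genes named mt- in the mitochondrial filter, to -0.056 over all kept wells without *Ptprc* or *Epcam*, and to -0.23 without plates 3 and 6, where *Col6a3* was -0.26, and no alternative gave a passing test. Leaving out 1 plate gave -0.13 to 0.11 for *Col6a1*, -0.34 to 0.015 for *Col6a2* and -0.19 to 0.39 for *Col6a3*. The difference in thinned *Zeb1* detection was -5.33 points at 1000 barcodes. In mural wells, the mt- filter gave passing tests for *Col6a1* (-1.11), *Col6a2* (-0.73) and *Col6a4* (-1.96). Testing all genes gave them for *Col6a1* (-0.89) and *Col6a4* (-1.43), and a lead of 1 marker (-1.49) or 10 wells per sum (-1.06) for *Col6a4*. With at least 3 wells per sum, chosen after seeing the data, *Col6a1* (-1.01) and *Col6a4* (-1.53) passed and *Col6a3* did not (0.55). *Zeb1* passed with the mt- filter (-0.93) and with 3 wells per sum (-0.98). Without single plates, 685 to 1422 genes were called, *Col6a3* was 1.002 to 1.45 and *Col6a4* -3.28 to -0.76. In neutrophil wells, 7424 genes were called when all genes were tested. For telocyte-like against iCAF-like wells DESeq2 called 637 genes, and *Col6a1* was -0.11 to 0.22 without single plates. For *Cxcl13* *Grem1* against iCAF-like wells DESeq2 called 244 genes, *Col6a2* reversed to 0.12 with the mt- filter, and leaving out plates gave 93 to 599 genes, -0.85 to -0.34 for *Col6a1* and -1.03 to -0.26 for *Col6a2*. *Zeb1* passed there with all genes (-0.93), the mt- filter (-1.10) and 10 wells per sum (-1.15). Against telocyte-like wells, *Col6a2* passed with all genes (-0.70) and with 10 wells per sum (-0.62), *Zeb1* reversed to -0.06 with the mt- filter, and leaving out plates gave 255 to 551 genes, -0.87 to -0.41 for *Col6a2* and -0.22 to 0.59 for *Zeb1*. The calls of *Col6a3* and *Col6a4* between fibroblast subtypes held in all alternatives. The split of wells by presence of *Col6a1* gave no ratio, because no *Zeb1* was counted in wells without it, and the alternatives for genotype in mural wells were not run. No paired analysis was possible because the genotypes share no replicate number.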

Other observations

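On FibΔZeb1 plate 5, 21 fibroblast wells held both *Myoc* and *Angptl7*, genes of secreted proteins best known from the eye. In these wells *Col6a1* was at 1447, *Col6a2* at 1255, *Col6a3* at 605 and *Zeb1* at 57.3 CPM, and no *Col6a4* was counted. Without them, the fibroblast wells of that plate had 1596 CPM of *Col6a1* in place of 1573. They came from 1 mouse, so that no test was made.

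The 123 wells without a class held 14.8% of all *Col6a3* transcripts, at 389 to 3207 CPM per plate, and *Col6a1* at 502 to 2779 CPM. On plate 3 these wells had 663 CPM of *Col6a4*, more than the 202 CPM of its telocyte-like wells. In 3 glial wells, 7 *Col6a3* transcripts were counted in 2 wells, and none were counted in 7 wells of other immune cells.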
